A study of Mus musculus with 22 samples.

Results

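Bone morphogenetic protein (BMP) signalling was described through 10 genes in gastruloids, aggregates of mouse embryonic stem cells that form derivatives of the body axis in culture. They were 4 secreted ligands (Bmp2, Bmp4, Bmp5 and Bmp7), 2 extracellular antagonists (Chrd and Nog) and 4 target genes (Id1, Id2, Id3 and Msx2). The genes were chosen as a list by symbol, with earlier results of these data known. Each of the 10 symbols matched 1 of the 32285 genes measured. The levels were read in 77674 cells that carry 25 cell type names given by the submitters.

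The cells came from the mouse embryonic stem cell line E14Tg2A, wild type, seeded at 300 cells per well. Aggregates formed for 48 h in N2B27 medium, and fresh medium with CHIR99021 at 3 µM was then added, which blocks the kinase GSK3 and so switches on the Wnt pathway. All groups share this line and treatment and differ in days after aggregation, so the spread between gastruloids is not a spread between lines. Transcripts were counted by unique molecular identifiers (UMIs) at their 3' ends on 10x Chromium lanes, and in the MULTI-seq experiments a lipid-anchored barcode assigned cells to a gastruloid. The 10X experiment held 1 lane of pooled gastruloids at day 3 and 1 at day 4. MULTI-seq 1 held 24 gastruloids at day 5. MULTI-seq 2 gave 11 gastruloids at day 4 and 12 at day 4.5 with at least 30 cells each. MULTI-seq 3 held 24 gastruloids of day 3 and 16 of each of the later days 3.5, 4, 4.5 and 5. Days 3.5 and 4 of MULTI-seq 3 shared lanes, as did its days 4.5 and 5 and the days of MULTI-seq 2, so only those neighbouring days were tested against each other.

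The gastruloid was the replicate, with a total of 53730 assigned cells. Lane totals ran from 30065021 to 238431052 UMIs and median UMIs per cell from 8287 to 38443, lowest in MULTI-seq 1. Of 76935 cell barcodes, 732 (0.951%) occurred in more than 1 lane. In 23 of the 25 types, 5 of 5 listed markers exceeded the median of the other types by more than 2-fold, and in Epiblast and Late Nascent Mesoderm 4 of 5 did. Fewer markers ranked a type among its 3 highest types. This held for 1 of 5 in Early Spinal Cord, Caudal Neurectoderm and Epiblast. It held for 2 of 5 in NMPs, Primitive Streak, Early Posterior PSM and Early Neurectoderm, and for 3 to 5 in the other types. The share of neural cells (neurectoderm, spinal cord and neurons) differed widely among gastruloids of the same day. In MULTI-seq 3 it ran from 0.0885% to 73.7% at day 4 and from 2.69% to 95.7% at day 4.5.

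BMPs are secreted dimers of the TGF-beta family that bind type I and type II serine/threonine kinase receptors and activate Smad1, Smad5 and Smad9, which enter the nucleus with Smad4. Chordin, the product of Chrd, and Noggin, the product of Nog, bind the ligands outside the cell and keep them from the receptors. Id genes encode helix-loop-helix proteins without a DNA-binding region, which hold partner factors off DNA, and Msx2 encodes a homeodomain factor. In the gastrulating mouse embryo, Bmp4 from extraembryonic tissue acts on the primitive streak, and the node and notochord secrete Chordin and Noggin.

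Upstream sequences are shown for 4 genes so that the recognition letters of BMP-regulated Smads can be seen beside the levels. They are taken from the windows of 250 bases before the start site in the RefSeq promoter table, build GRCm38.p6, up to the first base in an exon of the GENCODE annotation. That table matched 6 of the 10 symbols, and for Id3 and Msx2 the window began inside such an exon. The Id2 stretch lies before the RefSeq start but inside the gene in GENCODE (chr12:25093799-25097140), where a longer transcript starts farther upstream and the stretch is intronic. The other 3 stretches lie outside their genes in both annotations. Capitals mark GGCGCC, which reads the same on both strands, or CAGAC and its reverse complement GTCTG, the Smad-binding element; the motifs do not overlap here.
Id2 (chr12:25096254-25096342, minus strand): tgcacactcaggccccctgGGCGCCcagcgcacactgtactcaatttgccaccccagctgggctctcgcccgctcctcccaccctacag
Chrd (chr16:20732877-20733126, plus strand): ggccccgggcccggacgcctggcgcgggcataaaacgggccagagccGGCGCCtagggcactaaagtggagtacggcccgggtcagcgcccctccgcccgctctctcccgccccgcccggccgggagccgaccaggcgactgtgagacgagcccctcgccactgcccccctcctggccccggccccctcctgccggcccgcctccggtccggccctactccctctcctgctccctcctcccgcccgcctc
Bmp4 (chr14:46390670-46390919, minus strand): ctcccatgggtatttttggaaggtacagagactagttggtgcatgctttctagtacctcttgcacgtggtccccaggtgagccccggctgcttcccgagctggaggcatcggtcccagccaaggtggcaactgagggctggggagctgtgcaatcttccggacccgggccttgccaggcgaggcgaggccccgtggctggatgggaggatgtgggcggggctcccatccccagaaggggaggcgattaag
Bmp5 (chr9:75775115-75775363, plus strand): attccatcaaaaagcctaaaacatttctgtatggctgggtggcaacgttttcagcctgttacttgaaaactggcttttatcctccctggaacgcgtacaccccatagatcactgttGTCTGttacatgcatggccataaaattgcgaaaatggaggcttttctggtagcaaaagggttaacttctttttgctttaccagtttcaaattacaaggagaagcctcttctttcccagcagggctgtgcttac
GGCGCC stood 231 bases before the RefSeq start of Id2 and 203 bases before that of Chrd, and Bmp5 held 1 GTCTG. The Bmp4 window held neither. Among 32851 promoters of the table, GGCGCC occurred in 9.59% of 250-base windows and 2.73% of 89-base windows, and CAGAC or GTCTG in 42.1% of 249-base windows. A match describes letters and not a bound site.

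Levels are given in CPM, the UMIs of a gene per 1000000 UMIs of the same cells, as mean ± SD over gastruloids with at least 10 cells of the type, and in MULTI-seq 3 unless another experiment is named. Levels of different genes are not compared, since 3' counting efficiency differs between genes. The types were named from expression, and Chrd was among the Notochord markers, so levels between types are a description with no test. Highest and lowest refer to types and days with at least 3 gastruloids. With types of at least 5 gastruloids ordered by mean within each day, 368 of 410 neighbouring pairs differed by less than the larger of their SDs. By gene this held for 34 of 41 pairs for Id2, the fewest, and for 40 of 41 for Msx2, the most, so neighbouring types in these orders mostly cannot be ranked.

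Bmp2 had its highest means in nascent mesoderm, the anterior streak and endoderm. In Early Nascent Mesoderm the 4 gastruloids of day 4 read 39.2, 80.0, 85.6 and 161, a mean of 91.4 ± 50.6 CPM. Without the gastruloid that stood apart, at 161, the mean was 68.2 ± 25.3 (n = 3). At day 3.5 the same type read 42.9 ± 20.2 (n = 6; lowest 12.5, median 51.6, highest 60.3), and these ranges overlap. Mature Endoderm at day 5 read 22.8 ± 9.31 (n = 9; lowest 11.2, median 19.97, highest 40.5), and MULTI-seq 1 gave 29.8 ± 20.2 (n = 6). Anterior Primitive Streak, the source of endoderm and axial mesoderm, read 32.9 ± 17.4 at day 3 (n = 4). Endothelium read 14.2 ± 5.80 at day 5 (n = 6). Late Neurectoderm had no Bmp2 UMI at days 3.5, 4.5 and 5, where a count of 0 allows up to 0.695, 0.375 and 1.54 CPM, counting error only.

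Bmp4, the ligand with known roles in posterior and heart-forming mesoderm, was highest in Early Nascent Mesoderm at day 4, at 42.8 ± 22.8 (n = 4). Cardiopharyngeal Mesoderm, the progenitors of heart and head muscle, came next at day 4 at 38.1 ± 13.7 (n = 8; lowest 26.1, median 32.6, highest 63.4), and all 8 gastruloids lay above the Somites mean of 15.3 ± 9.34 (n = 12). The level in Cardiopharyngeal Mesoderm differed between and within experiments. MULTI-seq 2 read 15.0 ± 11.5 at day 4 (n = 4; 9.23 ± 1.13 without the gastruloid that stood apart, n = 3), while its 2 lanes without gastruloid calls, days 4 and 4.5 together, read 69.3 and 50.5. The 10X lane of day 4 read 111 and the 2 gastruloids of MULTI-seq 1 at day 5 read 129 and 145. Whether cells given this name were alike in these lanes and experiments was not tested.

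Bmp5 and Bmp7 shared head mesoderm and the notochord among their high types. Bmp5 read 14.4 ± 1.66 in Notochord at day 5 (n = 3) and 12.7 ± 9.38 in Early Nascent Mesoderm at day 4 (n = 4; 9.43 ± 8.17 without the gastruloid that stood apart, n = 3). It read 10.9 ± 5.52 in Cardiopharyngeal Mesoderm (n = 8) and 9.70 ± 2.65 in Head Mesoderm at day 4 (n = 7). Somites at day 5 had no Bmp5 UMI (n = 12), which allows up to 0.340 CPM. Bmp7 was highest in Early Nascent Mesoderm at day 3.5, at 60.1 ± 8.79 (n = 6; lowest 50.0, median 61.3, highest 69.8). In Head Mesoderm at day 5 it read 40.9 ± 7.88 (n = 7) and, in MULTI-seq 1, 39.2 ± 13.2 (n = 4), and at day 4.5 it read 52.7 (n = 3) and, in MULTI-seq 2, 35.5 ± 9.30 (n = 5). The lowest Bmp7 level was in Late Anterior PSM (presomitic mesoderm, the tissue that segments into somites) at day 5, at 0.589 ± 1.08 (n = 15).

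**Figure D1:**
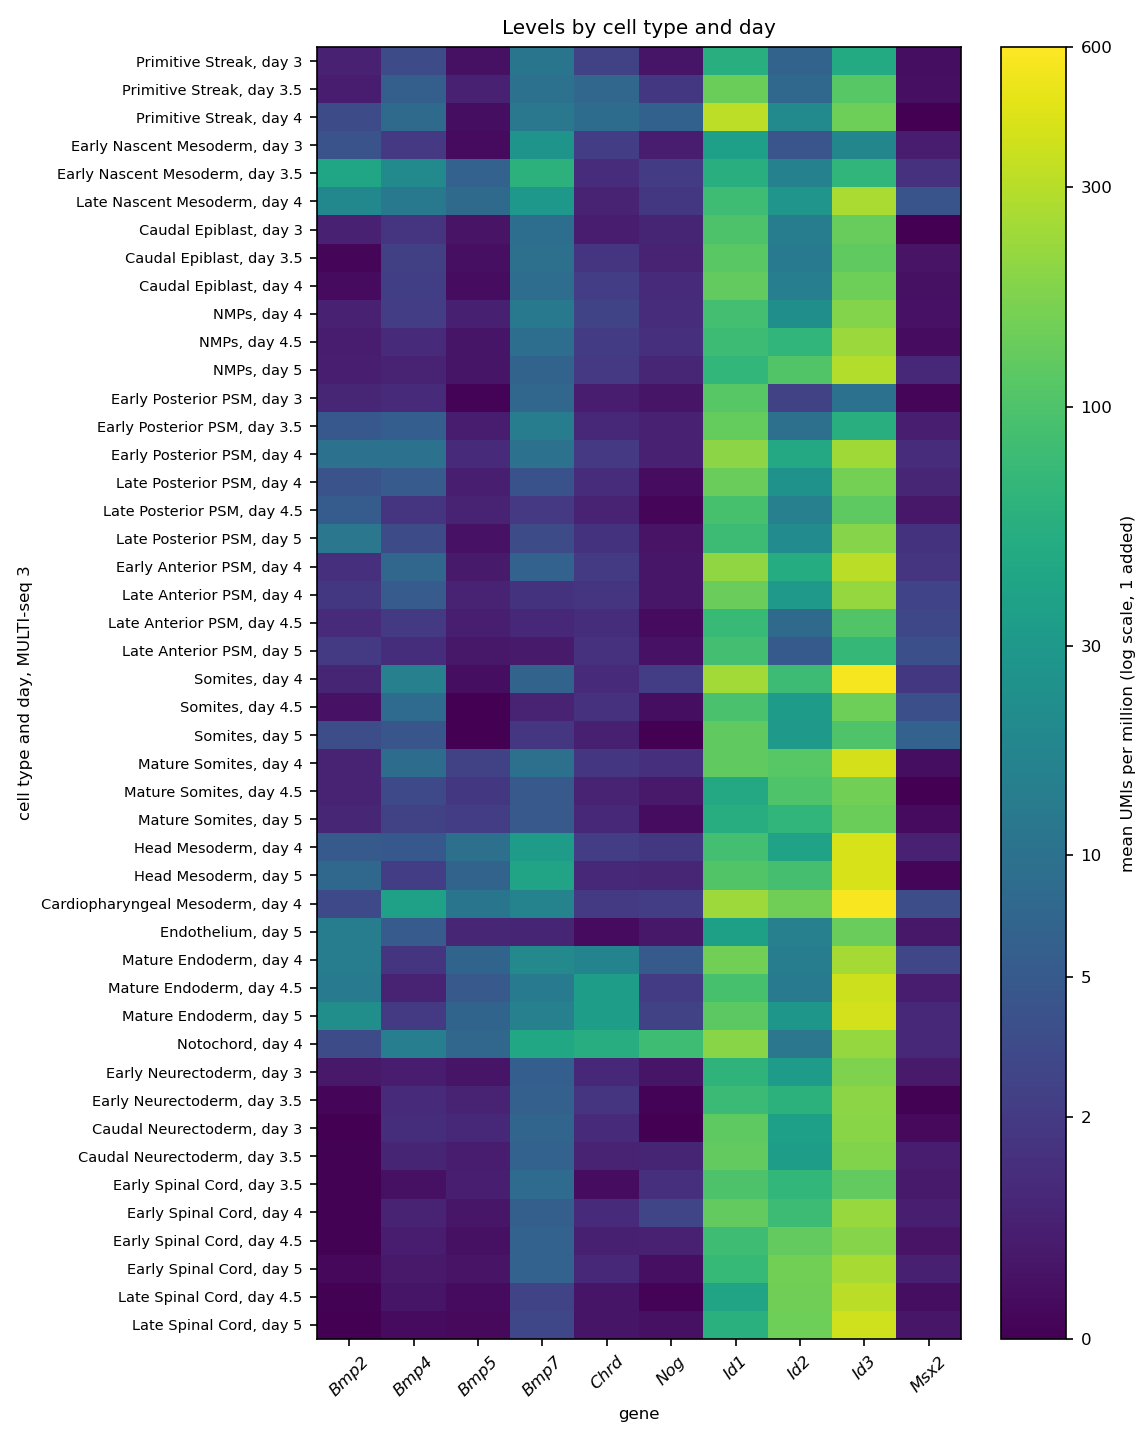
Mean level of each of the 10 genes (columns) in the 46 type and day combinations of MULTI-seq 3 with at least 5 gastruloids (rows), as CPM on a log colour scale with 1 added; colours compare types within a gene and not genes with each other. Notochord at day 4 was high for Chrd and Nog, and Cardiopharyngeal Mesoderm at day 4 was high for Bmp4 and Id3.

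Nog was concentrated in the notochord. It read 35.4, 45.2 and 91.0 in the 3 gastruloids of day 3.5, 80.9 ± 33.1 at day 4 (n = 7; lowest 25.6, median 85.7, highest 118) and 88.5, 111 and 164 at day 5. Without the gastruloid that stood apart, the Notochord mean at day 4 was 90.2 ± 24.4 (n = 6). The next highest Nog levels were 6.26 ± 3.71 in Primitive Streak (n = 5) and 5.09 ± 3.36 in Mature Endoderm (n = 14), both means at day 4 and below every Notochord gastruloid of days 3.5, 4 and 5. Other experiments gave Notochord values in the same span: 101 in the 1 gastruloid of MULTI-seq 1, 84.0 and 98.3 in MULTI-seq 2 at day 4, and 76.2 in the 57 cells of the 10X lane of day 4.

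Chrd was found both in Notochord and in the endoderm. In Notochord it read 26.4, 37.2 and 42.7 at day 3.5, 52.9 ± 24.5 at day 4 (n = 7; lowest 17.0, median 57.1, highest 87.8) and 31.5, 74.5 and 82.9 at day 5. Mature Endoderm read 17.0 ± 5.47 at day 4 (n = 14; lowest 9.04, median 16.2, highest 25.9) and 34.5 ± 6.97 at day 5 (n = 9; lowest 25.6, median 32.4, highest 47.8), overlapping Notochord. These days came from different lanes, so their difference was not tested. MULTI-seq 1 gave 39.4 ± 10.0 for Chrd in Mature Endoderm at day 5 (n = 6). Without the gastruloid that stood apart, the Notochord mean of Chrd at day 4 was 58.9 ± 20.5 (n = 6).

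The same cells could carry both antagonists. The shares below are over all final cells of a pool, with or without a gastruloid call, and their spread between gastruloids is not given. Whether cells with both were doublets was not tested. After each cell was thinned to 10000 UMIs, 34.9% of 581 Notochord cells of the day 3.5 and 4 pool had a Chrd UMI, 38.6% a Nog UMI and 17.6% both; before thinning the first 2 shares were 56.9% and 59.1%. In the day 4.5 and 5 pool the thinned shares were 44.7%, 43.9% and 23.2% of 228 cells. Mature Endoderm had Chrd in 14.6% and 29.0% of thinned cells of these pools and Nog in 3.77% and 3.27%. Caudal Neurectoderm served as a type with little of either gene. Its thinned shares in the day 3.5 and 4 pool were 0.786% for Chrd and 0.643% for Nog of 1400 cells. Before thinning they were 3.63% and 3.77%, at a median of 36754 UMIs per cell against 25564 in Notochord.

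Among the targets, Id3 was highest in Cardiopharyngeal Mesoderm at day 4, at 566 ± 59.9 (n = 8; lowest 463, median 557, highest 639). Somites at day 4 had a like Id3 mean with a wide spread, 554 ± 353 (n = 12; lowest 64.9, median 596, highest 1165), and Late Neurectoderm read 543 ± 239 at day 5 (n = 4). The lowest Id3 level was 9.97 ± 8.83 in Early Posterior PSM at day 3 (n = 11). Id2 was highest in neural types: 302 ± 136 in Late Neurectoderm at day 5 (n = 4), 152 ± 33.1 in Early Spinal Cord at day 5 (n = 16) and 149 ± 21.2 in Late Spinal Cord at day 4.5 (n = 7). Cardiopharyngeal Mesoderm at day 4 had 148 ± 37.7 (n = 8), within the spread of the spinal cord types. Early Posterior PSM at day 3 had the lowest Id2 level too, 2.56 ± 1.93 (n = 11).

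The Id1 levels had their highest mean in Primitive Streak at day 4. That mean, 318 ± 266 (n = 5; lowest 142, median 197, highest 780), rested on 1 gastruloid and was 203 ± 75.2 without it (n = 4). Somites read 247 ± 145 (n = 12; lowest 28.2, median 260, highest 535) and Cardiopharyngeal Mesoderm 233 ± 47.9 (n = 8), both at day 4. The lowest Id1 level was 35.8 ± 17.6 in Early Nascent Mesoderm at day 3 (n = 20). Msx2 read 6.40 ± 5.47 in Somites at day 5 (n = 12) and 3.72 ± 2.67 in Late Anterior PSM at day 5 (n = 15). Its highest mean, 11.9 ± 18.3 in Early Nascent Mesoderm at day 4 (n = 4), came mostly from 1 gastruloid at 38.7. Primitive Streak at day 4 had no Msx2 UMI (n = 5), which allows up to 1.02 CPM.

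The source of each transcript depends on the level and on how many cells of a type there are. Shares here pool the assigned cells of all gastruloids of a day, and their spread between gastruloids is not given. At day 4, 8 of 16 gastruloids held at least 10 Cardiopharyngeal Mesoderm cells, and 7 of 16 at least 10 Notochord cells. Notochord cells were 3.08% of assigned cells at day 4 and gave 53.9% of Nog UMIs, and at day 5 they were 1.25% of cells and gave 63.3%. Mature Endoderm gave 44.9%, 47.3% and 56.6% of Chrd UMIs at days 4, 4.5 and 5, from 8.64%, 3.23% and 4.05% of cells. Large shares of Bmp4 came from different types at days 3, 4 and 5, which were run in different lanes and not tested against each other. Primitive Streak gave 71.9% of Bmp4 UMIs at day 3 from 56.8% of cells, Cardiopharyngeal Mesoderm 36.0% at day 4 from 8.89% of cells, and Mature Somites 29.1% at day 5 from 28.8% of cells. Bmp2 came to 43.9% from Mature Endoderm and to 25.5% from Late Posterior PSM at day 5. The Id2 UMIs of day 5 came mostly from Late Spinal Cord (30.1%), Early Spinal Cord (29.7%) and Mature Somites (20.9%).

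**Figure D2:**
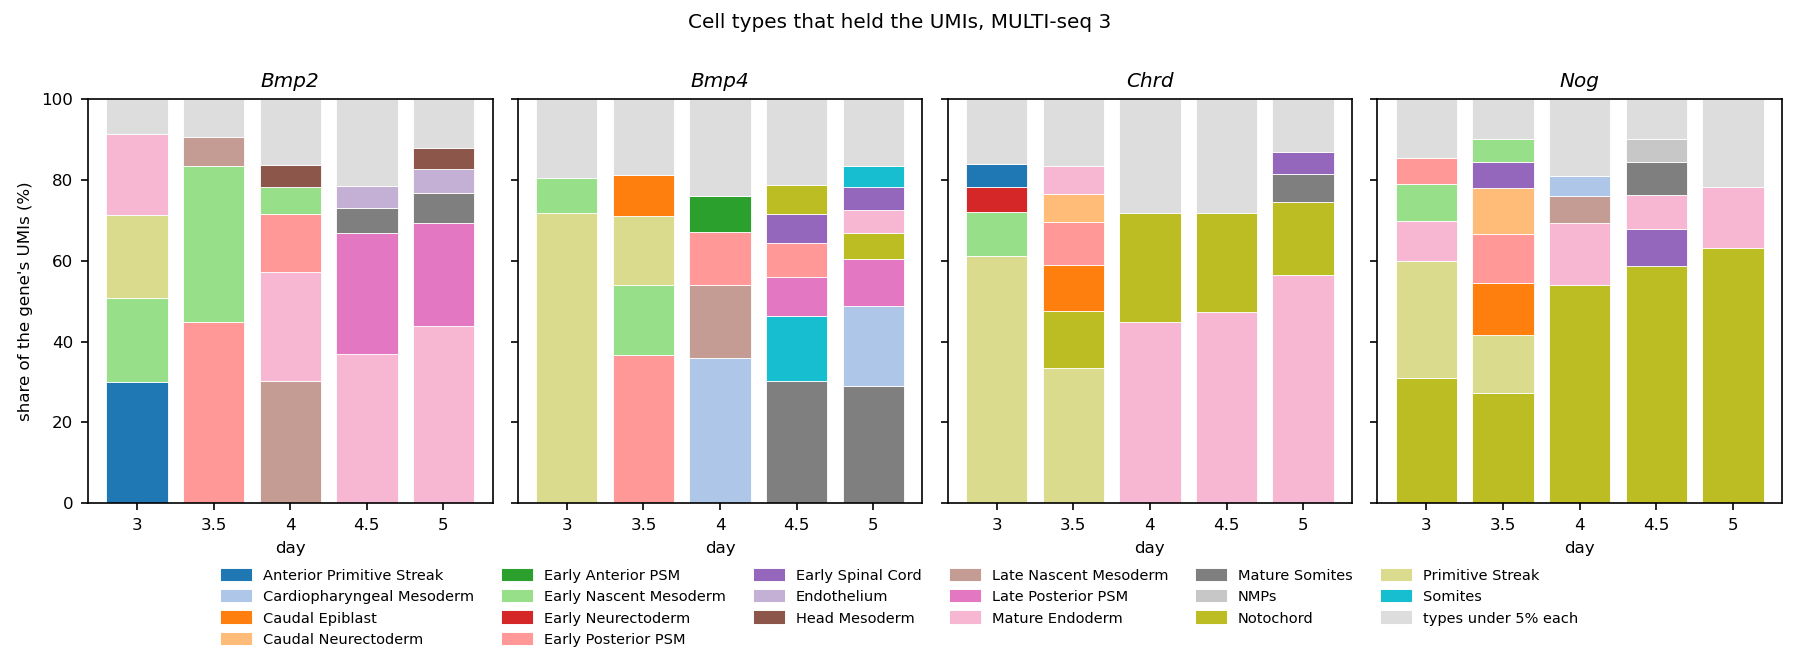
Share of a gene's UMIs (vertical axis, percent) that came from each cell type at each day of MULTI-seq 3, for Bmp2, Bmp4, Chrd and Nog; types under 5% are grouped. The Notochord share of Nog was 53.9% at day 4 and 63.3% at day 5, and Mature Endoderm gave 44.9% and 56.6% of Chrd.

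Whole gastruloids were compared first, with all their cells summed. In such sums, fewer cells of a type and less RNA per cell cannot be told apart. From day 3.5 to day 4 of MULTI-seq 3, 8 of the 10 genes rose: both antagonists, 4 of 4 targets and the ligands Bmp4 and Bmp5. None fell. Of all 13262 genes tested, 60.4% were called in either direction, 31.1% higher and 29.2% lower, so a majority of genes changed in this comparison. The median log2 difference of the 10 genes was 1.09, against 0.01 over all genes tested. The 10 genes were chosen with earlier results of these data known, so this contrast is a description and not a test.

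Id3 read 130 ± 44.9 at day 3.5 (n = 16; lowest 61.4, median 130, highest 237) and 291 ± 105 at day 4 (n = 16; lowest 136, median 315, highest 435). The day 4 gastruloids lay above the day 3.5 median in 16 of 16, with a log2 difference of 1.14 (SE 0.18, adjusted p = 3.71e-06), and the ranges overlap. Bmp5 read 0.997 ± 0.726 (lowest 0.0904, median 0.982, highest 2.77) and then 3.82 ± 2.73 (lowest 0.137, median 3.50, highest 10.9), a log2 difference of 1.88 (SE 0.38, adjusted p = 8.19e-05; 15 of 16 above the earlier median). The ranges overlap, and the lowest day 4 gastruloid stood near the day 3.5 minimum.

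Both antagonists rose. Nog went from 1.32 ± 0.879 (lowest 0.280, median 1.30, highest 2.89) to 3.67 ± 3.08 (lowest 0.692, median 2.00, highest 10.9), a log2 difference of 1.34 (SE 0.38, adjusted p = 0.00308; 13 of 16). Chrd went from 2.27 ± 0.853 (lowest 1.49, median 2.05, highest 4.45) to 4.75 ± 3.80 (lowest 1.15, median 2.91, highest 13.7), a log2 difference of 1.03 (SE 0.30, adjusted p = 0.00420; 12 of 16). In both, the ranges overlap and the day 4 mean lay above the median because a few gastruloids were high.

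Bmp4 went from 3.85 ± 2.98 (lowest 0.561, median 2.88, highest 10.2) to 9.43 ± 6.98 (lowest 1.05, median 7.78, highest 22.4), a log2 difference of 1.19 (SE 0.39, adjusted p = 0.00901; 13 of 16). Id2 went from 29.0 ± 20.01 (lowest 7.89, median 25.6, highest 88.3) to 53.6 ± 20.1 (lowest 21.1, median 55.1, highest 87.0), a log2 difference of 0.87 (SE 0.26, adjusted p = 0.00455; 15 of 16). Both sets of ranges overlap widely. Msx2 rose from 0.630 ± 0.539 to 2.03 ± 2.48, a log2 difference of 1.58 (SE 0.46, adjusted p = 0.00425; 14 of 16). Id1 rose least, from 117 ± 43.1 to 161 ± 61.2, by a log2 difference of 0.42 (SE 0.18, adjusted p = 0.0456; 14 of 16). That Id1 call was lost in DESeq2 (adjusted p = 0.0620), at a minimum of 100 cells (0.0848), without the filter on low counts (0.0506), without the gastruloid standing apart (0.0865) and without lane B (0.0656) or lane D (0.0548) of the pool. Bmp2 (log2 difference 0.99, SE 0.52, adjusted p = 0.0992) and Bmp7 (0.12, SE 0.19, adjusted p = 0.599) did not pass.

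**Figure D3:**
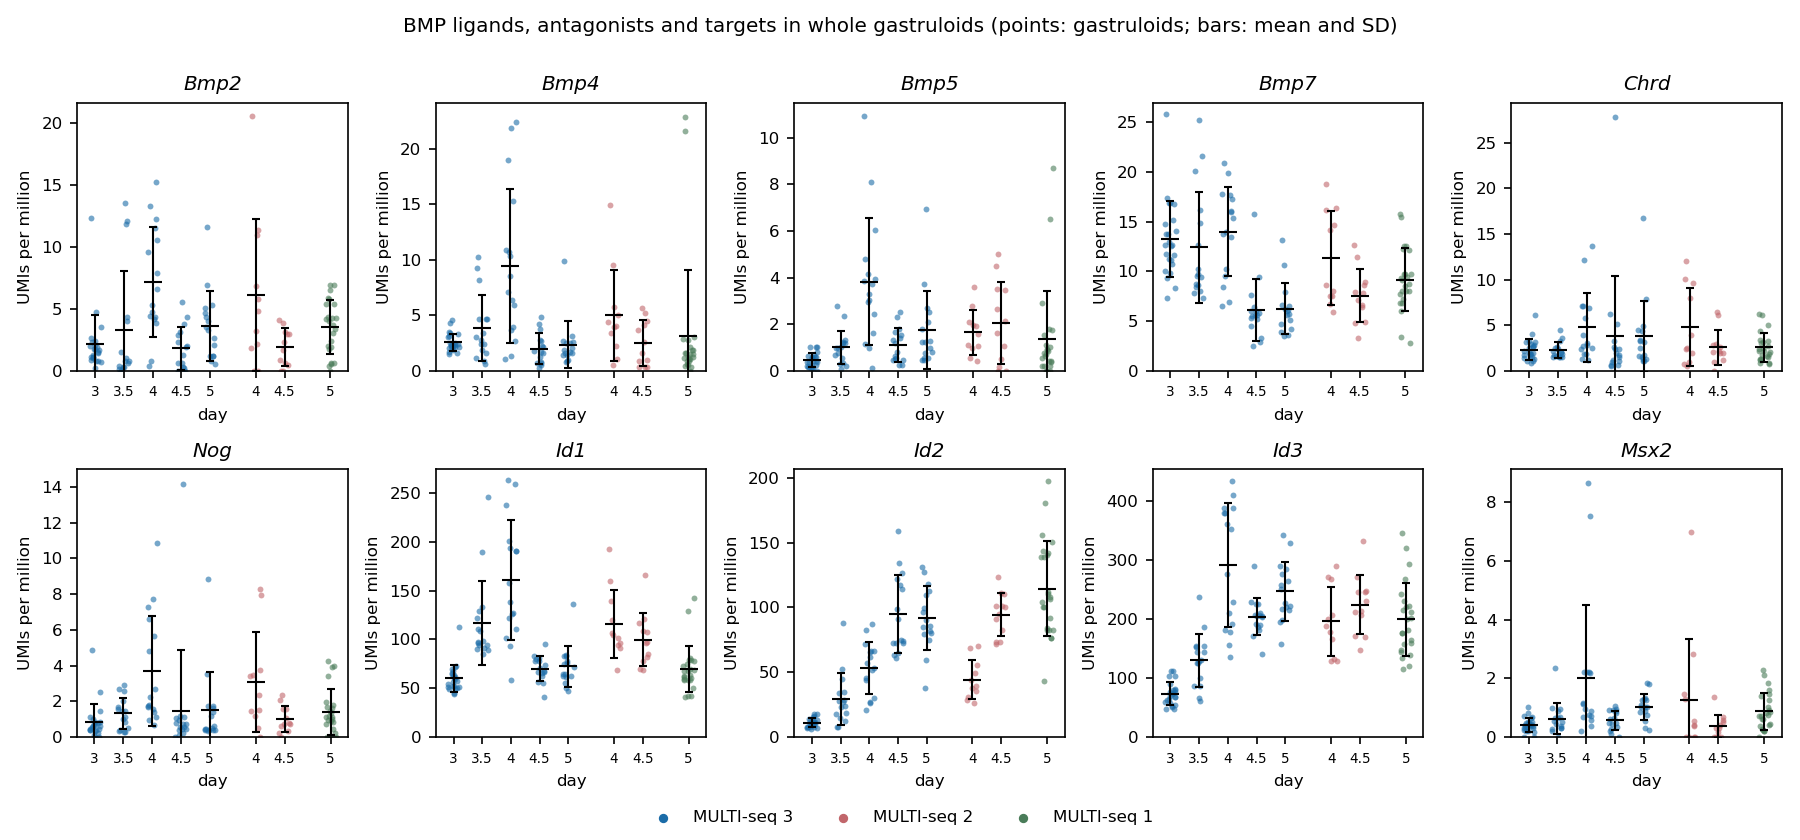
Level of each of the 10 genes in whole gastruloids (vertical axis, CPM) by day after aggregation; points are gastruloids of 3 experiments, bars the mean and SD. Id3 of MULTI-seq 3 had a mean of 130 at day 3.5 and 291 at day 4, and Id2 of MULTI-seq 2 had a mean of 44.3 at day 4 and 94.5 at day 4.5.

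The neural share moved with this comparison. Its median was 43.9% at day 3.5 (lowest 0.498%, highest 83.5%) and 1.18% at day 4 (lowest 0.0885%, highest 73.7%). With the neural share of each gastruloid as a covariate in edgeR, 3 of the 8 calls remained: Id3 (log2 difference 1.09, adjusted p = 0.000137), Id2 (1.47, adjusted p = 1.34e-05) and Bmp5 (1.17, adjusted p = 0.0108). The share of all genes called in that fit was not recorded, so the 3 cannot be set against all genes. The other calls among the 8 did not pass there. Their log2 differences there were 0.90 for Msx2 (adjusted p = 0.141), 0.79 for Nog (0.0936), 0.71 for Chrd (0.0967), 0.28 for Bmp4 (0.503) and 0.12 for Id1 (0.569).

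The neighbouring days 4.5 and 5 differed less. Of 9 members tested in whole gastruloids, Id3 was the only call in edgeR, where 13.5% of all 12298 genes were called and 3 members had an unadjusted p under 0.05. It read 204 ± 31.9 (lowest 140, median 205, highest 290) at day 4.5 and 247 ± 49.6 (lowest 157, median 239, highest 343) at day 5, ranges that overlap, with a log2 difference of 0.26 (SE 0.09, adjusted p = 0.0427; 13 of 16 above the earlier median). The call was lost without any 1 of the 3 lanes (adjusted p = 0.0529 to 0.0614). DESeq2 called 3 members, Id3, Msx2 (log2 difference 0.80, adjusted p = 0.0456) and Nog (1.22, adjusted p = 0.0409). The Nog median did not rise, at 0.635 CPM at day 4.5 (highest 14.2) and 0.555 CPM at day 5 (highest 8.86). The DESeq2 value for Nog thus went against these medians, and Nog was not among the 9 members tested in edgeR. The part of the day 4.5 gastruloid at 14.2 in that value was not tested. With the neural share as a covariate, edgeR called Bmp2 (0.97, adjusted p = 0.00338), Msx2 (0.72, adjusted p = 0.0241) and Id3. The shares of all genes called in DESeq2 and with this covariate were not recorded.

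MULTI-seq 2 compared day 4 with day 4.5, and there Id2 separated the days. Id2 read 44.3 ± 15.2 at day 4 (n = 11; lowest 26.2, median 39.6, highest 70.2) and 94.5 ± 16.8 at day 4.5 (n = 12; lowest 71.5, median 97.7, highest 124), and the ranges do not overlap. The log2 difference was 1.07 (SE 0.15, adjusted p = 0.000136 in edgeR). It was the only call among 8 members tested, against 7.36% of 11064 genes called. Bmp2 went from 6.12 to 1.91 (log2 difference -1.54, SE 0.51, adjusted p = 0.0665) and Bmp7 from 11.3 to 7.56 (-0.61, SE 0.21, adjusted p = 0.0796), neither of which passed. DESeq2 called Nog as well (-1.68, adjusted p = 0.00997). The neural share median was 2.50% at day 4 and 21.7% at day 4.5, and with it as a covariate in edgeR the Id2 difference was 0.99 (SE 0.15, adjusted p = 5.97e-05).

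Within a type, the question was whether the same named cells carried more of a gene at the later day. From day 3.5 to day 4 this could be tested in Caudal Epiblast, the posterior progenitor layer, and in Early Posterior PSM, its mesodermal neighbour. The largest member differences were those of Id2 and Id3 in Early Posterior PSM. There 4 of 6 members tested were called, 3 higher and 1 lower, against 38.3% of all 9605 genes, 19.7% higher and 18.6% lower. The median neural share over all gastruloids was 43.9% at day 3.5 and 1.18% at day 4. Its part in the day differences within and between these types was not tested.

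Id3 in Early Posterior PSM read 54.2 ± 77.5 at day 3.5 (n = 13; lowest 5.32, median 16.8, highest 274) and 242 ± 154 at day 4 (n = 16; lowest 21.7, median 234, highest 451). The ranges overlap, 16 of 16 day 4 gastruloids lay above the day 3.5 median, and the log2 difference was 1.70 (SE 0.36, adjusted p = 0.000284). Id2 read 9.54 ± 10.5 (lowest 0, median 6.46, highest 39.6) and then 46.8 ± 24.2 (lowest 5.43, median 56.0, highest 84.7), a log2 difference of 1.71 (SE 0.29, adjusted p = 1.03e-05; 15 of 16). Both genes varied far more between gastruloids than genes of like level did: the biological coefficient of variation was 0.825 for Id3 and 0.629 for Id2, against fitted trends of 0.0733 and 0.0758.

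The 2 ligands called in Early Posterior PSM went opposite ways. Bmp4 rose from 5.77 ± 5.68 (lowest 0, median 4.31, highest 20.9) to 10.3 ± 4.78 (lowest 0, median 10.6, highest 16.4), a log2 difference of 0.71 (SE 0.25, adjusted p = 0.0219; 15 of 16 above the earlier median), and neither DESeq2 (adjusted p = 0.0898) nor the fit without lane C (0.0602) called it. Bmp7 fell from 13.9 ± 6.03 (lowest 3.04, median 12.6, highest 25.4) to 9.90 ± 4.93 (lowest 3.87, median 8.55, highest 18.01), a log2 difference of -0.73 (SE 0.21, adjusted p = 0.00448; 10 of 16 below the earlier median). Ranges overlap for both ligands. Id1 (log2 difference 0.45, adjusted p = 0.122) and Bmp2 (0.32, adjusted p = 0.408) did not pass.

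In Caudal Epiblast, Id3 was the 1 call among 4 members tested, with 21.2% of 8735 genes called. It read 124 ± 20.2 at day 3.5 (n = 15; lowest 92.7, median 118, highest 159) and 147 ± 36.4 at day 4 (n = 15; lowest 97.7, median 148, highest 213), a log2 difference of 0.29 (SE 0.10, adjusted p = 0.0318; 10 of 15), which was lost in DESeq2 (adjusted p = 0.0647) and without lane A (0.0912) or lane C (0.0953). The difference between the types was tested in 1 model with both. The day effect was larger in Early Posterior PSM than in Caudal Epiblast by 1.85 for Id3 (SE 0.37, adjusted p = 0.000444) and by 1.70 for Id2 (SE 0.38, adjusted p = 0.00176), with 12.6% of 9767 genes called. Bmp7 differed by -0.76 (adjusted p = 0.0627) and was not called, but it was called at a minimum of 25 cells (-0.92, adjusted p = 0.0362) and without lane A (-1.07, 0.00826).

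**Figure D4:**
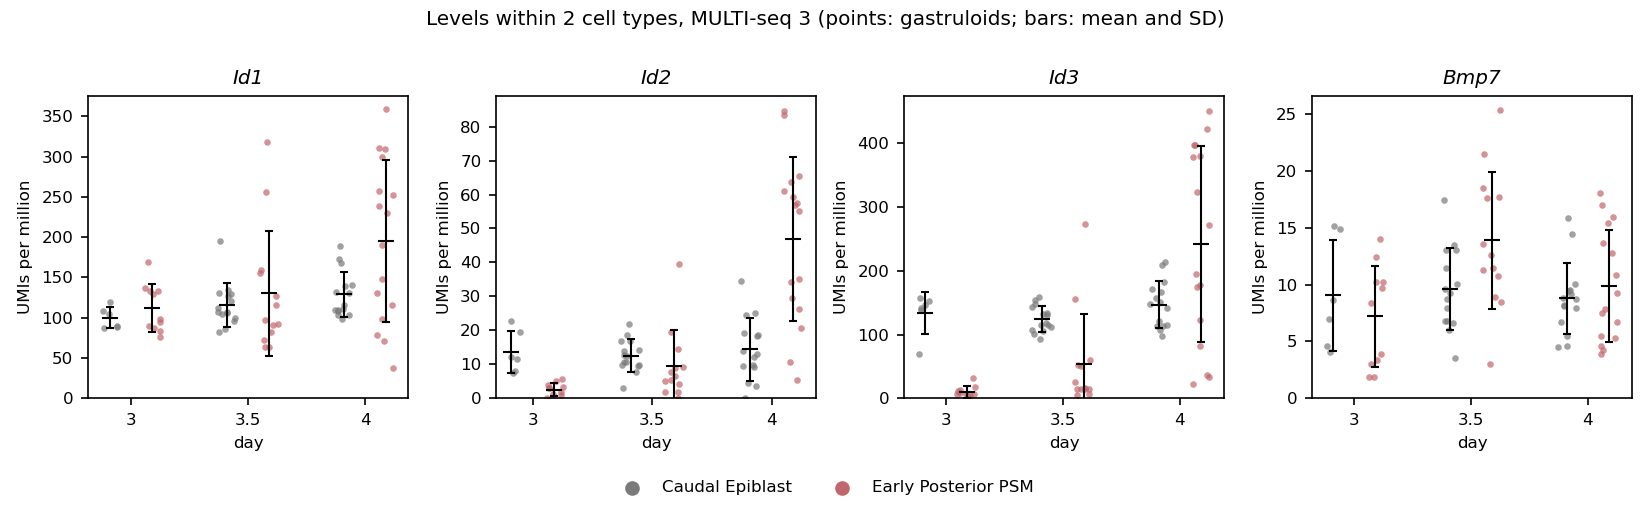
Id1, Id2, Id3 and Bmp7 (CPM, vertical axes) in Caudal Epiblast and Early Posterior PSM at days 3, 3.5 and 4 of MULTI-seq 3; points are gastruloids with at least 10 cells of the type, bars the mean and SD. In Early Posterior PSM the mean of Id3 was 9.97 at day 3, 54.2 at day 3.5 and 242 at day 4, with wide spread, while in Caudal Epiblast it was 124 at day 3.5 and 147 at day 4.

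From day 4.5 to day 5, 8 types held at least 6 gastruloids per day, and 8 calls of members were spread over 5 of them. Of the members tested, edgeR called 3 of 4 in Early Spinal Cord and 2 of 3 in NMPs. It called 1 of 4 in Late Posterior PSM, 1 of 3 in Late Spinal Cord and 1 of 5 in Mature Somites. It called 0 of 2 in Late Anterior PSM, 0 of 6 in Mature Endoderm and 0 of 3 in Somites. Of all genes, 1.63% (Mature Endoderm) to 14% (Mature Somites) were called by type. In NMPs (neuromesodermal progenitors, which give rise to spinal cord and somites), where 7.55% of 7378 genes were called, Id2 read 66.1 ± 23.2 (n = 13; lowest 25.4, median 64.2, highest 109) and then 105 ± 25.8 (n = 16; lowest 74.1, median 97.1, highest 158). All 16 of the later gastruloids lay above the earlier median, the ranges overlap and the log2 difference was 0.72 (SE 0.13, adjusted p = 0.000119). At day 4, from other lanes, the Id2 level in NMPs was 23.3 ± 11.6 (n = 14). Id3 rose in NMPs by 0.29 (SE 0.09, adjusted p = 0.0443; 13 of 16), from 228 ± 58.7 to 285 ± 52.3, and it was lost in DESeq2 (adjusted p = 0.223) and without lane A (0.249) or lane B (0.0543). Id1 in NMPs was called only without lane B (-0.37, adjusted p = 0.0463).

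Late Posterior PSM was the type in which a ligand was called. Bmp2 read 5.39 ± 4.11 at day 4.5 (n = 12; lowest 0, median 4.86, highest 12.4) and 11.8 ± 5.11 at day 5 (n = 16; lowest 2.33, median 11.3, highest 22.9). The log2 difference was 1.20 (SE 0.24, adjusted p = 0.000539; 14 of 16 above the earlier median), the ranges overlap and 6.88% of 7818 genes were called. Without lane A, Bmp2 did not pass the filter on low counts and was not tested. MULTI-seq 1 read 13.2 ± 6.43 at day 5 in that type (n = 22).

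In the spinal cord types the Id genes moved differently from each other. In Late Spinal Cord, Id1 read 40.7 ± 5.40 (n = 7; lowest 32.9, median 39.2, highest 49.0) and then 57.6 ± 10.9 (n = 8; lowest 43.9, median 53.6, highest 77.2), a log2 difference of 0.47 (SE 0.10, adjusted p = 0.00596; 8 of 8), with 7.79% of 9921 genes called and a narrow overlap of ranges. In Early Spinal Cord, where 12.4% of 9061 genes were called, Id3 rose from 185 ± 81.3 to 257 ± 63.2 (log2 difference 0.54, SE 0.14, adjusted p = 0.00717; 15 of 16). Id2 rose there from 129 ± 26.0 to 152 ± 33.1 (0.26, SE 0.09, adjusted p = 0.0381; 13 of 16), and Id1 fell from 80.7 ± 13.3 to 70.8 ± 15.1 (-0.27, SE 0.08, adjusted p = 0.0230; 11 of 16 below the earlier median). DESeq2 called none of these 3 (adjusted p = 0.0771 for Id1, 0.0790 for Id3 and 0.199 for Id2). Id1 was also lost without lane A (0.222), Id3 without lane B (0.0589) and Id2 without lane A (0.0548) or lane C (0.0524). The median neural share of the gastruloids tested for Late Spinal Cord was 78.3% at day 4.5 and 54.8% at day 5. Its part in the Id1 difference of that type was not tested.

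Mature Somites went the other way for Id2. It read 101 ± 58.6 at day 4.5 (n = 13; lowest 7.50, median 126, highest 166) and 66.1 ± 37.2 at day 5 (n = 16; lowest 11.7, median 66.6, highest 131), ranges that overlap almost wholly. The log2 difference was -0.75 (SE 0.25, adjusted p = 0.0387; 15 of 16 below the earlier median), with 14% of 10019 genes called, and DESeq2 did not call it (adjusted p = 0.364) but called Nog (-1.80, adjusted p = 0.0253). Nog was near the floor there, with a UMI in 0.872% of the 4933 Mature Somites cells of the pool. In edgeR it was called only without the filter on low counts. The Id2 day effect differed between Mature Somites and Early Spinal Cord by -1.05 (SE 0.31, adjusted p = 0.0366), among 4.07% of 10468 genes called, and without lane A it did not pass (adjusted p = 0.0652). Without lane C, Id3 was called as well (-0.75, adjusted p = 0.0365). The median neural share of these gastruloids was 15.5% at day 4.5 and 29.7% at day 5, and its part in the day difference was not tested.

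No member was called by edgeR in Late Anterior PSM (2.86% of genes called), Mature Endoderm (1.63%) or Somites (3.60%). The counts at an unadjusted p under 0.05 were 0, 2 and 1, and DESeq2 called 0 in each of the 3. In Mature Endoderm, Id2 read 13.1 ± 9.72 (n = 7) and then 28.7 ± 9.28 (n = 9), a log2 difference of 1.06 that did not pass (SE 0.32, adjusted p = 0.0995; 9 of 9 above the earlier median), and that was called without the filter on low counts (1.09, adjusted p = 0.0297). So were Id3 in Somites (-0.57, adjusted p = 0.0392) and, among the types above, Id3 in Late Spinal Cord (0.32, adjusted p = 0.0218). In Late Posterior PSM of MULTI-seq 2 (6 gastruloids against 8), edgeR called 0 of 3 members tested, 0 had an unadjusted p under 0.05 and DESeq2 called 0, against 1.13% of genes. Id1 was called there without lane 3 (-0.95, adjusted p = 0.0367).

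Id2 and Id3 levels in Mature Somites fell as the neural share of the gastruloid rose. At day 5 of MULTI-seq 3, Id2 in Mature Somites was 78.7 and 131 in the 2 gastruloids with the lowest neural shares, 5.67% and 6.01%, and 11.7 and 14.6 in those with the highest, 73.7% and 81.0%. Between these, the gastruloid with 6.95% neural cells read 34.8 and that with 66.7% read 65.9. At day 5 of MULTI-seq 1 the gastruloid with 3.86% neural cells read 240 and that with 86.4% read 19.9. These values rest on 152 and 17 Mature Somites cells, with 1664916 and 150517 UMIs. From 66.0% neural cells up, gastruloids there held 17 to 38 Mature Somites cells, and the others held 27 to 171. The highest value there, 269, stood at 30.5%. At day 4.5 of MULTI-seq 3 the values were 128 at 2.69% and 7.50 at 95.7%. In each of these 3 groups the gastruloid with the most neural cells lay in the low part of the Id2 range of Mature Somites.

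Slopes were fitted as log2 units per 10 percentage points of neural share. For Id2 they were -0.32 in MULTI-seq 1 at day 5 (n = 23, SE 0.05, adjusted p = 2.13e-05), -0.27 in MULTI-seq 3 at day 5 (n = 16, SE 0.05, adjusted p = 0.000557) and -0.34 at day 4.5 (n = 13, SE 0.04, adjusted p = 2.43e-06). For Id3 they were -0.23 (adjusted p = 0.000146), -0.22 (0.000199) and -0.24 (0.000179) in the same order. Id1 had slopes of -0.16 (adjusted p = 0.0926), -0.15 (0.00232) and -0.20 (0.00577), so it was called in MULTI-seq 3 and, in MULTI-seq 1, only without lane 2 (-0.17, adjusted p = 0.0379). Of all genes, 5.54%, 10.5% and 1.83% were called. Without the 2 gastruloids farthest in neural share, the Id2 slope at day 5 of MULTI-seq 3 was -0.18 and did not pass (adjusted p = 0.0628). At day 4.5 the gastruloids fell into separate sets, 9 with 2.69% to 26.9% neural cells and 4 with 61.6% to 95.7%, and no slope was fitted within either. The day 4.5 fit and the comparisons of slopes were added after the day 5 values had been seen.

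Slopes were also fitted in other types of the same gastruloids, and those in NMPs and Early Spinal Cord were tested against Mature Somites. In NMPs the Id2 slopes were 0.11, 0.09 and 0.09 in the same order and were not called (adjusted p = 0.133, 0.0625 and 0.657). In models with the gastruloid as a block, the Id2 slope in Mature Somites was below that in NMPs by -0.49 (adjusted p = 3.45e-10) and -0.39 (3.21e-09) at day 5, and by -0.34 at day 4.5, which did not pass (0.0547). Against Early Spinal Cord the Id2 differences were -0.39 (adjusted p = 5.81e-10), -0.34 (1.85e-06) and -0.44 (1.24e-08). The percentages of genes called were 1.33, 0.87 and 0.0257 against NMPs, and 2.42, 1.6 and 1.15 against Early Spinal Cord.

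Id3 had slope differences against NMPs of -0.24, -0.24 and -0.28 (adjusted p = 4.16e-06, 1.98e-05 and 0.0139). Against Early Spinal Cord they were -0.21 and -0.21 at day 5 (0.000385 and 0.000506) and -0.08 at day 4.5 (0.513), where the Id3 slope of Early Spinal Cord was itself called at -0.14 (adjusted p = 4.30e-05; 2.0% of genes). Id1 had no called slope difference: edgeR gave adjusted p from 0.0513 to 0.720 over the 6 comparisons. In Early Spinal Cord, Id1 had slopes of -0.07 in MULTI-seq 1 (adjusted p = 0.0615) and -0.09 in MULTI-seq 3 at day 5 (adjusted p = 0.00129; 0.77% of genes). In Late Spinal Cord, Id1 had a slope of -0.23 in MULTI-seq 1 (n = 15, adjusted p = 0.00608; 1.11% of genes) and of -0.07 in MULTI-seq 3 (n = 8, adjusted p = 0.472). The former was lost without the 2 gastruloids farthest in neural share (adjusted p = 0.116).

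In 3 other mesodermal types no Id slope was called by edgeR, and their differences from Mature Somites were not tested. Over 7 fits in Somites, Late Anterior PSM and Late Posterior PSM, 0 of 15 Id slopes were called and 5 had an unadjusted p under 0.05. In Somites of MULTI-seq 3 the Id2 slope was 0.22 at day 5 (n = 12, SE 0.08, adjusted p = 0.240; 0.177% of genes called). At day 4.5 Somites had an Id3 slope of -0.34 (n = 10, SE 0.11, adjusted p = 0.333; 0.237%), and Id2 was not tested there. Late Anterior PSM at day 5 had Id3 slopes of -0.16 in MULTI-seq 1 (adjusted p = 0.247; 1.43%) and -0.04 in MULTI-seq 3 (0.914; 0.218%), and Id1 slopes of 0.10 (0.607) and -0.09 (0.336). Late Posterior PSM at day 5 had Id3 slopes of -0.12 in MULTI-seq 1 (adjusted p = 0.101; 1.87%) and -0.04 in MULTI-seq 3 (0.895; 0.0437%), and at day 4.5 only Id1 was tested (-0.06, adjusted p = 0.917; 0.0%).

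Markers in the same Mature Somites cells also moved. Of the 5 Somites markers, 2, 1 and 2 rose with the neural share in MULTI-seq 1 at day 5 and MULTI-seq 3 at days 5 and 4.5, and 0 fell. Tcf15, a somite transcription factor, rose with the neural share by 0.11, 0.07 and 0.07 per 10 points (adjusted p = 1.94e-06, 0.000155 and 0.000416), and Uncx, of the posterior somite compartment, had slopes of 0.09 (adjusted p = 0.00918), 0.05 (0.192) and 0.26 (1.46e-05). Of the 5 Anterior PSM markers only Foxc2, also in the Somites list, and Aldh1a2 passed the filter on low counts, and Aldh1a2 had slopes of 0.10 (adjusted p = 0.00263), 0.03 (0.454) and 0.10 (0.0740). Summed, the Anterior PSM markers in MULTI-seq 1 were 211 to 263 CPM in the 4 gastruloids with the lowest neural shares. They were 278 to 456 CPM in the 5 with the highest. The gastruloids between ran from 208 to 360 CPM and overlapped both ranges. At day 4.5 they were 215 to 337 CPM in the 9 gastruloids with few neural cells and 424, 275, 408 and 188 CPM in the 4 with many, and at day 5 of MULTI-seq 3 they ran from 146 to 236 CPM. The summed Spinal Cord markers in these cells ran from 6.64 to 58.3 CPM, against 1264 to 2073 for the Somites markers. The part of somite maturity or of neural RNA in the Id slopes was not tested.

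The other genes of the pathway were read from lists of 46 symbols: other ligands, receptors and co-receptors, Smads, other antagonists and extracellular modulators, and other targets. In whole gastruloids from day 3.5 to day 4, 26 were tested, 16 rose and 3 fell. Of all genes, 31.1% rose and 29.2% fell. These values are from the fit without the neural share as a covariate. The other targets had 7 of 9 tested higher and 0 lower, with a median log2 difference of 1.05 against 0.01 over all genes. These lists were also chosen with earlier results known, so that contrast is a description and not a test. Id4, the remaining Id gene, rose by 2.05 (adjusted p = 4.72e-08), Gata3 by 3.73 (1.21e-06), Hand1, a factor of lateral and heart mesoderm, by 2.88 (0.00138) and Atoh8 by 1.13 (9.07e-08). The other antagonists split: Cer1 rose by 4.60 (adjusted p = 2.17e-07) and Chrdl1 fell by 1.24 on the log2 scale (0.0276). Of 9 receptors and co-receptors tested, 4 rose and 2 fell.

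Within Early Posterior PSM, 8 of 16 listed genes tested rose and 1 fell, where 19.7% of all genes rose and 18.6% fell. Id4 rose by 2.33 (adjusted p = 3.12e-10), and the inhibitory Smad7, a feedback target, by 0.52. The receptor Bmpr1a rose by 0.31 and Smad1 fell by 0.43 on the log2 scale. The day effect of Id4 was larger there than in Caudal Epiblast by 2.20. From day 4.5 to day 5, whole gastruloids had 3 of 25 listed genes higher and 0 lower, near the 13.5% of all genes called. Among the 3 were Bmp3 (1.95) and the co-receptor Rgmb (0.64). In Mature Somites, where 14% of all genes were called, 2 of 20 were higher (Bmp3 by 1.46 and Rgmb by 0.58) and 3 were lower: Cer1 fell by 1.73, the decoy receptor gene Bambi fell by 0.37 and Twsg1 fell by 0.26 on the log2 scale. Msx1, the paralog of Msx2, fell by 1.97 in Mature Endoderm (adjusted p = 0.00959) and fell by 1.12 in Late Spinal Cord (0.0157).

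The genes with patterns most like those of the members were found by Pearson correlation of mean log2 levels (1 added) over the 46 type and day combinations, among 7892 genes; combinations share gastruloids, lanes and depth. For Chrd they were Krt19 (r = 0.95), Upk3a (0.94) and Cobl (0.92), and for Nog they were Noto (0.85), a notochord homeobox gene, Foxj1 (0.84) and Gzmm (0.83). Bmp2 was most like Itga5 (0.82), Bmp4 like Nub1 (0.82), Bmp5 like Prxl2a (0.84) and Bmp7 like Abcd4 (0.77). Id1 was most like Ercc6l2 (0.68), Id2 like Syt11 (0.81), Id3 like Nsmaf (0.85) and Msx2 like Chst8 (0.80). Among the members, the most alike pairs were Chrd with Nog (0.71), Id2 with Id3 (0.69) and Bmp5 with Bmp7 (0.66). Pairs of a ligand with a target ran from -0.32 (Bmp2 with Id2) to 0.41 (Bmp5 with Id3).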

How the data were processed

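The authors deposited UMI counts per gene and cell from droplet lanes, and a table of final cells with type names and gastruloid calls. Per the submitters' processing notes, Cell Ranger 6.0.0, Seurat and the mm10 build were used; strand settings were not stated there. The authors' final cells were kept, with no further doublet caller. Counts were summed per gastruloid (at least 30 cells) or per gastruloid and type (at least 10 cells) over the lanes of a pool, which are technical splits. Differences were tested with edgeR 4.0.16 (R 4.3.3), quasi-likelihood, with TMM scaling and default filtering of low counts. Adjusted p is Benjamini-Hochberg over all genes tested, called under 0.05, two-sided. DESeq2 1.42.0 was an alternative. The procedure was tested on simulated data. Of 2-fold changes in whole gastruloids, 98.5% were recovered for day 4 against day 3.5 and 99% for day 5 against day 4.5. In the same order, 5.4% and 6.8% of the calls were false. Recovery at the spread of the 10 members between gastruloids was not tested. The members and lists were chosen with earlier results of these data known. All 10 members are named, and of the other pathway genes up to 6 called with the largest differences. Pools of days 3 and 3.5 in MULTI-seq 2 were not used here. The p-values measure the spread between separate gastruloids of a cell line.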

Additional observations from a re-analysis of the deposited data

Results flagged for a closer look

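Groups of 4 to 10 gastruloids with a mean of at least 5 CPM were checked by Dixon's 95% criterion. Of 209 groups, 19 held a highest or lowest gastruloid far from its nearest neighbour. The criterion flags about 1 in 20 by chance only for independent, normally distributed values. These groups share gastruloids and some values rest on few UMIs, so the 19 cannot be set against that rate. Levels here are CPM.

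A single day 4 gastruloid of MULTI-seq 3 (1130 cells, neural share 0.0885%) gave 6 of them. In Notochord, where it held 10 cells, it read 45.4 for Bmp4 (next 14.6), 525 for Id1 (next 168), 45.4 for Id2 (next 11.9) and 443 for Id3 (next 249). In Primitive Streak, where it held 17 cells, it read 780 for Id1 (next 310) and 74.5 for Id2 (next 12.7). Its Notochord cells were lowest of 7 for Nog (25.6, median of the others 91.0), Chrd (17.0, others 59.7) and Bmp7 (19.9, others 53.1). Its Primitive Streak cells were lowest of 5 for Nog and Bmp7, at 1.59 each. Whether these cells match their type names was not tested. This gastruloid was highest for Id1 in 3 of its 11 types and for Id2 in 4 of 11. Without it the Notochord means at day 4 were 135 ± 26.3 for Id1 in place of 191 ± 150 and 6.17 ± 3.66 for Id2 in place of 11.8 ± 15.2.

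A day 4 gastruloid of MULTI-seq 2 (143 cells, neural share 2.10%) gave 4. In Cardiopharyngeal Mesoderm, from 13 cells, it read 32.1 for Bmp4 (next 9.95), 14.6 for Bmp5 (next 4.53) and 29.2 for Msx2 (next 1.13). It also read 62.9 for Id2 in Late Posterior PSM (next 18.04).

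The remaining values were spread over types. High gastruloids were found for Id1 in Mature Endoderm of MULTI-seq 1 at day 5 (163, next 100.1) and in Early Neurectoderm at day 3.5 of MULTI-seq 3 (102, next 83.0). For Id3 they were found in Late Anterior PSM (237, next 113) and Late Spinal Cord (355, next 258) at day 4.5 of MULTI-seq 2 and in Late Posterior PSM at day 3.5 of MULTI-seq 3 (145, next 54.7). At day 4.5 of MULTI-seq 3, Id2 in Late Anterior PSM (22.4, next 8.46) and Bmp4 in Somites (33.3, next 14.7) each had a high gastruloid. Low gastruloids were found for Id3 in Early Spinal Cord at day 4 of MULTI-seq 2 (97.5, next 116) and in Caudal Epiblast at day 3 of MULTI-seq 3 (68.8, next 139).

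Effects differed between types in 13 tests. For the day effects these were 2 of 6 and 1 of 4 members tested. For the slopes they were 2 of 3, 2 of 4 and 1 of 3 against NMPs. Against Early Spinal Cord they were 2 of 3, 2 of 4 and 1 of 4. Slope counts follow the order MULTI-seq 1 at day 5 and MULTI-seq 3 at days 5 and 4.5. Of all genes, 0.0257% to 12.6% were called by fit. The slope differences were added after the day 5 values had been seen and reuse the Mature Somites sums. The day effect from 3.5 to 4 was larger in Early Posterior PSM than in Caudal Epiblast for Id3 (1.85) and Id2 (1.70), and that from 4.5 to 5 was lower in Mature Somites than in Early Spinal Cord for Id2 (-1.05). The slope on neural share was lower in Mature Somites than in NMPs for Id2 (-0.49 in MULTI-seq 1 and -0.39 in MULTI-seq 3, both at day 5) and for Id3 (-0.24 in MULTI-seq 1, -0.24 in MULTI-seq 3 at day 5 and -0.28 at day 4.5). It was lower than in Early Spinal Cord for Id2 (-0.39, -0.34 and, at day 4.5, -0.44) and for Id3 (-0.21 in each experiment at day 5).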

How the results depend on the processing

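No paired analysis was possible because gastruloids carry no number shared between days, and lane numbers are technical splits of one pool. From day 3.5 to day 4, 8 calls in whole gastruloids became 3 with the neural share as covariate and 6 without lane B, where Msx2 was not tested, and 5 calls within types became 3 in DESeq2 and 3 without lane C. From day 4.5 to day 5, the 1 call in whole gastruloids became 3 in DESeq2, 3 with the neural share, 0 without the filter on low counts (Id3 adjusted p = 0.0514) and 0 without lane A, B or C; the 8 calls within types became 4 in DESeq2, of which 3 were among the 8 and 1 was Nog in Mature Somites, and 4 without lane A, all among the 8, with Bmp2 in Late Posterior PSM not tested. Without the filter on low counts the 8 were kept and 4 were added: Nog in Mature Somites, Id2 in Mature Endoderm and Id3 in Somites and Late Spinal Cord. The day effect between Mature Somites and Early Spinal Cord had 1 call, 0 without lane A and 2 without lane C. In MULTI-seq 2, 1 whole-gastruloid call became 2 with Nog added in DESeq2, without the filter and at 100 cells, and 0 calls in Late Posterior PSM became 1 at 25 cells (Id1 -0.78) and 1 without lane 3 (Id1 -0.95). The Late Spinal Cord slope of Id1 in MULTI-seq 1 gave 0 calls without the 2 farthest gastruloids, at 25 cells and with gastruloid size as covariate. The share of all genes called under these alternatives was not recorded, and the cause of these changes was not tested.

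Log2 differences that changed sign were uncalled in every case. With the neural share they were Bmp2 (-0.11) and Bmp7 (-0.28) at day 4 and Id1 (-0.0398), Bmp7 (-0.0375) and Id2 (0.0672) at day 5. In DESeq2 they were Chrd in whole gastruloids at day 5 (0.76) and Bmp7 in Caudal Epiblast (-0.017). Under DESeq2 size factors they were Bmp7 in Mature Somites (-0.0017) and the Id1 slope in Somites (-0.0010). At 25 cells they were the Bmp2 day effect between types at day 4 (-0.0579) and Id1 in Mature Somites (-0.0060). Id3 in Late Posterior PSM of MULTI-seq 2 also changed sign at 25 cells (-0.025). Without the filter it was Id2 in Late Spinal Cord (3.04e-05). Without single lanes they were Bmp7 in Caudal Epiblast (-0.0533), whole-gastruloid Bmp7 (-0.0094), Bmp4 (-0.0058) and Chrd (0.0993 and 0.0271) at day 5, Bmp7 in Early Spinal Cord (-0.14) and Mature Somites (-0.0802), Id2 in Late Spinal Cord (0.0411), Id1 in Mature Somites (-0.0248), NMPs (0.0051) and Somites (-0.0673 and -0.207), the Bmp7 day effect between types at day 5 (-0.0907) and Id3 in Late Posterior PSM of MULTI-seq 2 (-0.24).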

Other observations

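Lanes without gastruloid calls were in no comparison and give pooled levels for the antagonists. In the 2 lanes of MULTI-seq 2 without calls, days 4 and 4.5 together, Notochord read 44.8 and 48.8 CPM for Chrd and 46.4 and 45.2 for Nog. Cardiopharyngeal Mesoderm read 69.3 and 50.5 for Bmp4 there, and 8.30 and 9.57 for Nog.

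At a minimum of 25 cells, 1 gastruloid was left for Mature Endoderm at day 4.5 of MULTI-seq 3, with Bmp2 at 19.1, Chrd at 60.7, Id1 at 53.2 and Id3 at 256 CPM.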
